A study of Mus musculus with 16 samples.

Results

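The Ikaros family genes Ikzf1 (Ikaros), Ikzf2 (Helios), Ikzf3 (Aiolos) and Ikzf4 (Eos), together with Satb1, were examined in 12 ChIP-seq peak lists of mouse CD8+ T cells. These 5 genes were chosen by name from the 25672 genes with a curated RefSeq transcript on mm10, as transcription factors of lymphocytes. All peaks that overlapped a gene body extended by 40 kb on each side were taken, which gave 261 peaks in 861 kb over the 12 lists. A peak was placed at a transcription start site (TSS) if it overlapped the 1 kb on either side of a curated TSS, and was otherwise called distal and put in an exon, an intron or between genes by its summit or centre.

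The source was spleen of OT1 mice, which are transgenic for a T cell receptor against an ovalbumin peptide. Activation lasted 48 h, on bound anti-CD3 with soluble anti-CD28 (2 μg/ml each) and IL-2 (20 ng/ml), and was followed by 3 days of growth in IL-2. Through both steps the cells received either vehicle (Veh) or 0.5 μM GSK2879552 (GSK), which blocks the histone demethylase LSD1 irreversibly. Chromatin was precipitated for LSD1, Pol II (RNA polymerase II), H3K27ac and the mono-, di- and trimethylated forms of H3K4 (H3K4me1, H3K4me2, H3K4me3), and the 4 input samples of the series carried no peak list. One library stood behind each list, so no difference given here was measured against a spread between replicates and none was tested. Cells of both treatments shared the transgene, the activation and the cytokine. Whether a library pooled several animals is not given in the sources used here.

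Ikaros family proteins are zinc finger transcription factors that bind DNA with their N-terminal fingers and form dimers through their C-terminal fingers. Ikaros and Aiolos are made throughout the lymphoid lineages, Helios and Eos are best known from regulatory T cells, and Helios is also made by some activated T cells. In lymphocytes Ikaros is found with the nucleosome remodelling and deacetylase (NuRD) complex. Satb1 is a chromatin organiser that binds AT-rich DNA and is needed for T cell development. The demethylase LSD1 acts on H3K4me1 and H3K4me2, marks of enhancers and promoter flanks, and takes part in both CoREST and NuRD complexes.

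The DNA under the strongest distal LSD1 peak of each gene is shown so that the sites behind the later comparisons can be read. Each run holds the summit of the peak and 100 bases of mm10 on either side, from the RefSeq GRCm38.p6 assembly and written on its plus strand. Capitals mark matches on either strand to TGGGAA (core of the Ikaros site), CAGGAAG (ETS), TGTGGT (RUNX), CAGCTG (E-box) and TGANTCA (AP-1), and no marked match overlaps another. For Ikzf3 the second strongest peak is shown, since the strongest lay in a predicted first exon of Mien1.
Ikzf1 intron 3, chr11:11716091-11716291, Veh: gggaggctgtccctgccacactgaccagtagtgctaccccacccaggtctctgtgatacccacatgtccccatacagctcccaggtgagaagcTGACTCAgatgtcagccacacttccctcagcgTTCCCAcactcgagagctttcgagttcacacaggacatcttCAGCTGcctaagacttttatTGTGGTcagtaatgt
Ikzf2 upstream, chr1:69687642-69687842, GSK: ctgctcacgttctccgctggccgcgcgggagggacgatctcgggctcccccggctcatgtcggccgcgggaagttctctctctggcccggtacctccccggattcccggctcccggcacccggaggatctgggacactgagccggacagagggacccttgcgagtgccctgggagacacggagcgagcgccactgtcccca
Ikzf3 intron 1, chr11:98540340-98540540, GSK: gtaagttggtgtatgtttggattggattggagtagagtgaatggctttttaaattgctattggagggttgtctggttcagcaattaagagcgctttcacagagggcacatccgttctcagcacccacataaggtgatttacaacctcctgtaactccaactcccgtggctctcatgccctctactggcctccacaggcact
Ikzf4 gene record, chr10:128663574-128663774, Veh: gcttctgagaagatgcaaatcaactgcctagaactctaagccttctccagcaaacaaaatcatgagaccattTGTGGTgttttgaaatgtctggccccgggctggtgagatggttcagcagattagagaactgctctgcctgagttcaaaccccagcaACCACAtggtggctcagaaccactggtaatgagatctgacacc
Satb1 upstream, chr17:51854702-51854902, Veh: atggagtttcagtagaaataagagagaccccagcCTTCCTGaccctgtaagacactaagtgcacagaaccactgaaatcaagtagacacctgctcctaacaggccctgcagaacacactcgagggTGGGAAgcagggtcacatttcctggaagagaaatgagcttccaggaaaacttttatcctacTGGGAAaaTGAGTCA
The Ikzf1 window held 4 matches, to the Ikaros, RUNX, E-box and AP-1 motifs, and the Satb1 window held 4, to the Ikaros motif at 2 places and to the ETS and AP-1 motifs. The Ikzf4 window held 2 RUNX matches. The Ikzf2 and Ikzf3 windows held none, and the Ikzf2 window was the richest in CpG of the 5, with 21 CpG and 70.6% GC.

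LSD1 was called within the TSS windows of Ikzf1, Ikzf3, Ikzf4 and Satb1 in both treatments and in that of Ikzf2 in Veh cells only, where the overlapping GSK peak lay further upstream. Most distal LSD1 peaks of the 5 windows were found in 1 treatment only, as in the whole lists. The lists of both treatments held 25 LSD1 peaks each in the 5 windows. Of the 25 Veh peaks 16 (64.0%, exact 95% interval 42.5 to 82.0) overlapped a GSK peak, against 54.6% of the whole Veh list. All 11 Veh peaks at a TSS did so, 7 at TSSs of the 5 genes and 4 at those of neighbours (interval 71.5 to 100), where the list gave 83.0%. Of the 14 distal Veh peaks 5 did so (35.7%, 12.8 to 64.9), and the list gave 34.9%. Both intervals included the share of the list, which is no test. They count peaks as independent, yet the 16 kept Veh peaks overlapped only 14 GSK peaks. These shares rest on an overlap of 1 bp. When 50% of a Veh peak had to be covered, 8 of 11 TSS peaks (72.7%) and 5 of 14 distal peaks (35.7%) were kept. In the GSK list 11 of the 25 peaks had no Veh peak, against 42.2% of that list. They were 9 of 14 distal peaks (56.3% in the list) and 2 of 11 TSS peaks (28.1%), both of the latter at TSSs of neighbours.

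**Figure D1:**
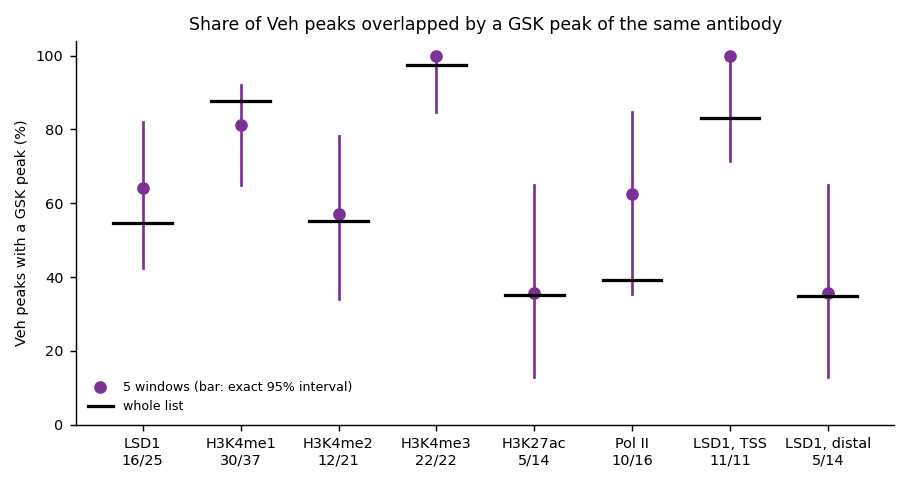
Share of Veh peaks (percent, y axis) overlapped by a GSK peak of the same antibody, with the numbers of peaks under each antibody. Points are the 5 windows with exact 95% intervals, which cover counting error only, and black bars are the whole lists. H3K4me3 (22 of 22) and LSD1 at TSSs (11 of 11) were kept at every Veh peak, while H3K27ac (5 of 14) and distal LSD1 (5 of 14) were kept at the fewest.

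The promoter pattern of the 5 genes was headed by H3K4me3, which marks active promoters. Every gene had an H3K4me3 peak at its own TSS in both treatments, against 49.2% of 31508 promoters. Here and in later comparisons with promoters, a gene counted if any of its curated TSSs had a peak. The 31508 promoters were counted singly, so genes with several TSSs, such as Satb1 with 5, had more chances. LSD1 was found there in both treatments at Ikzf1, Ikzf3, Ikzf4 and Satb1 (30.8% of promoters), and in Veh cells only at Ikzf2 (4.52%). H3K4me1 and H3K4me2 peaks reached the TSS windows of Ikzf1 and Ikzf4 alone, in both treatments (26.0% and 25.5% of promoters). H3K27ac peaks of both treatments lay at Ikzf1 (8.20%), and Satb1 had Veh peaks alone (12.1%). For Pol II, Ikzf1 had peaks of both treatments (21.2%), Satb1 of Veh cells alone (7.11%) and Ikzf3 of GSK cells alone (2.85%).

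**Figure D2:**
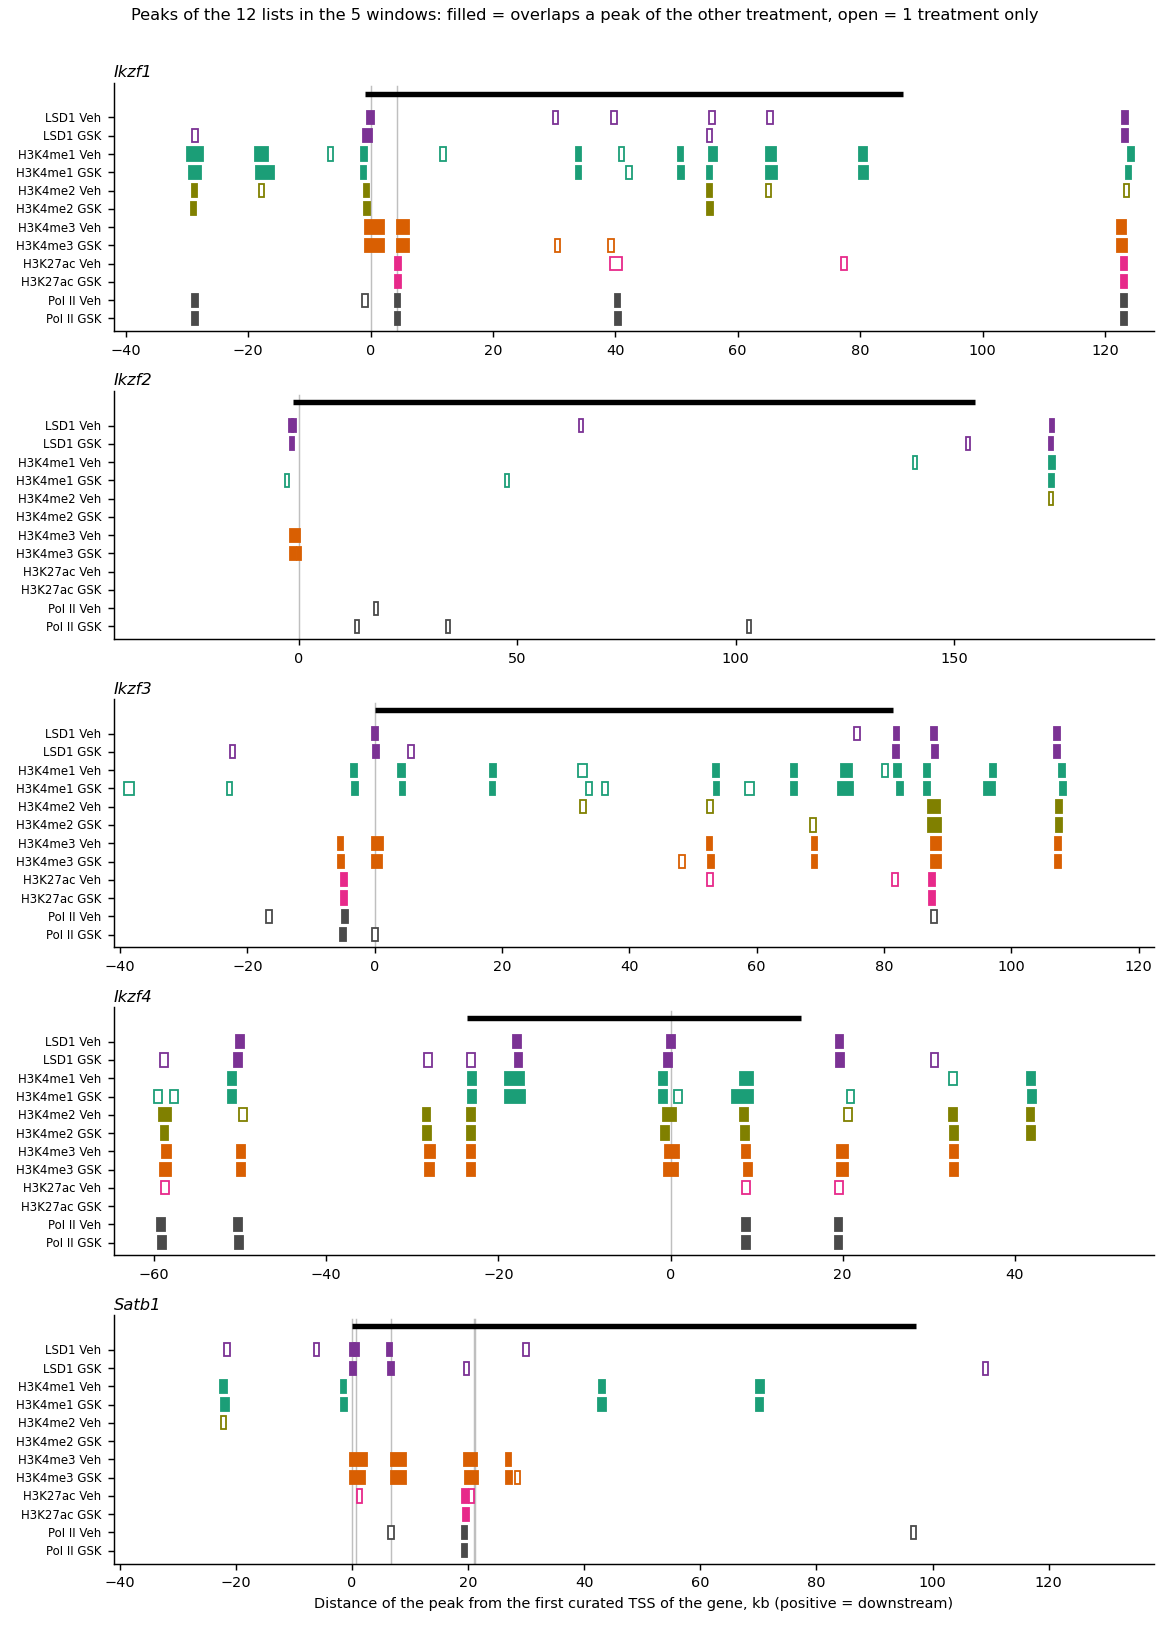
Peaks of the 12 lists in each window, drawn by distance in kb from the first curated TSS in the direction of the gene. Rows are antibodies and treatments, the black bar is the RefSeq gene record, grey lines are curated TSSs, filled boxes overlap a peak of the other treatment, and boxes are drawn at least 0.9 kb wide. Ikzf1, Ikzf3 and Ikzf4 carried 64 to 72 peaks, and Ikzf2 and Satb1 carried 20 and 36.

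Ikzf1 encodes Ikaros, the founding member of the family, and its gene record lies on the plus strand at chr11:11684962-11772930. Its pair of curated TSSs, 4.25 kb apart, differed in their marks. The first TSS window is shared with Gm11999, which starts in the other direction. It held LSD1 at 4.83-fold over input with a −log10 p of 12.1 in Veh cells, and at 3.97-fold and 7.66 in GSK cells. H3K4me1 lay on its upstream flank at 4.60-fold in Veh and 4.08-fold in GSK cells. H3K4me2 was at 3.57-fold and 4.10-fold. A Pol II peak stood on the same flank, 0.869 kb upstream, in Veh cells only (3.29-fold, −log10 p 6.36). No H3K27ac peak was called there. The second TSS held no LSD1, H3K4me1 or H3K4me2 peak in either treatment. It carried H3K27ac (2.63-fold in Veh, 2.84-fold in GSK) and Pol II (4.05-fold in Veh, 3.03-fold in GSK).

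H3K4me3 at Ikzf1 was broad and low in both treatments. The region at the first TSS was 3101 bp wide at 2.22-fold in Veh cells and 3093 bp wide at 2.21-fold in GSK cells. By width it ranked 127 of 15779 Veh peaks and 134 of 16887 GSK peaks, and by fold it lay at the 0.555 and 0.595 percentile of these lists. The region at the second TSS was 1998 bp wide (−log10 p 25.5) in Veh and 1975 bp at 2.04-fold (22.5) in GSK cells. The widest 5% of Veh H3K4me3 peaks had a median of 3.71-fold, and the whole list had 5.71-fold, so wide peaks had lower folds than the list. Both Ikzf1 regions lay below the 5th percentile of fold among peaks of their own bin of width, when each list was split by width into 20 bins.

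**Figure D3:**
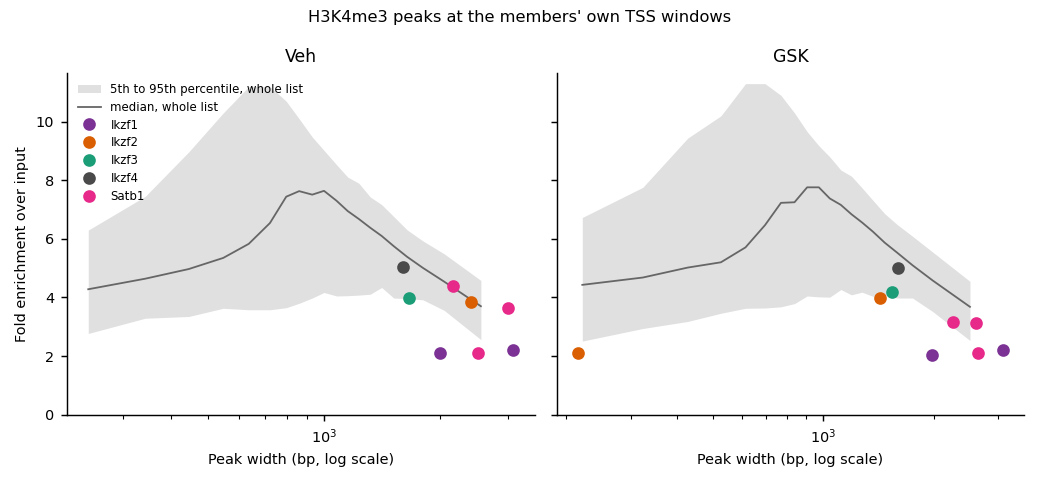
Fold enrichment over input (y axis) against peak width in bp (x axis, log scale) for H3K4me3 peaks at the genes' own TSS windows, in Veh (left) and GSK (right). The grey band is the 5th to 95th percentile and the line the median of the whole list in 20 bins of width. Both Ikzf1 regions, none above 2.22-fold, and the middle Satb1 region, at 2.09-fold, lay below the band or below its right end in both treatments.

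Along the body of Ikzf1 the LSD1 peaks of introns 3 and 4 were largely those of Veh cells. None of the 4 distal Veh LSD1 peaks overlapped a GSK peak, and in the list only 34.9% did. The strongest, 30.3 kb downstream of the first TSS in intron 3, is the Ikzf1 sequence shown above, at 5.23-fold and a −log10 p of 10.9 (rank 4277 of 21252). It overlapped no other peak of any list. A site, here and below, is a stretch joined from peaks of any list that overlap in a chain, so its peaks need not all overlap each other. A site at 40.2 kb held LSD1 (3.13-fold), H3K4me1 (2.05-fold) and H3K27ac (2.95-fold) in Veh cells only. Its LSD1 and H3K4me1 peaks did not overlap, and by −log10 p lay at the 25.4 and 15.2 percentile of their lists. A GSK-only H3K4me1 peak (1.91-fold) stood just beyond, at 42.2 kb. Pol II was called at the 40.2 kb site in both treatments, at 5.26-fold in Veh and 3.05-fold in GSK cells, and H3K4me3 in GSK cells only (3.50-fold). Its H3K27ac region was 1943 bp wide, rank 102 by width of 7410. A site at 65.5 kb in intron 4 held LSD1 (4.87-fold) and H3K4me2 (4.22-fold) in Veh cells only, while H3K4me1 was kept at 3.37-fold in Veh and 3.40-fold in GSK cells.

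The site at 55.9 kb in intron 3 was the exception, with H3K4me1, H3K4me2 and LSD1 in both treatments. Its H3K4me2 peak was at 5.53-fold with a −log10 p of 18.6 in Veh cells, rank 228 of 15219, and at 5.51-fold and 12.6 in GSK cells, rank 879 of 9437. The LSD1 peaks (4.84-fold in Veh, 5.24-fold in GSK) lay side by side without overlap, so that by peaks they counted as 1 treatment only. The GSK peak was the strongest distal LSD1 peak of Ikzf1 in GSK cells. A peak of H3K27ac at 77.4 kb in intron 7, 177 bp wide at 3.46-fold, was called in Veh cells only.

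Upstream of Ikzf1, an intron of Gm11999 at 28.7 kb carried H3K4me1, H3K4me2 and Pol II in both treatments and LSD1 in GSK cells only (4.67-fold). Its Pol II peaks were at 5.39-fold in Veh and 5.09-fold in GSK cells. The widest H3K4me1 region of Ikzf1, 17.2 kb upstream, was 2913 bp in GSK cells, and the Veh region that overlapped it was 2092 bp.

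Ikzf3 encodes Aiolos and lies on the minus strand at chr11:98464610-98546031, with 1 curated TSS. LSD1 stood at this TSS at 3.52-fold (−log10 p 7.13) in Veh cells and at 5.19-fold (12.6) in GSK cells, which moved it from the 54.3 to the 84.2 percentile of its list. H3K4me3 was at 3.99-fold over 1657 bp in Veh and 4.18-fold over 1537 bp in GSK cells. Pol II was called in GSK cells only, at 2.89-fold and a −log10 p of 4.30. H3K27ac and Pol II of both treatments were instead found 4.99 kb upstream, at the TSS of Zpbp2, the next gene. There H3K27ac was at 3.86-fold in Veh and 4.34-fold in GSK cells, and Pol II at 5.91-fold and 3.46-fold.

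Ikzf3 had 12 H3K4me1 peaks in Veh cells, as many as Ikzf1, and 15 in GSK cells, the most of the 5 genes. Of the 14 distal GSK peaks 5 had no Veh peak, against 24.1% of distal GSK H3K4me1 peaks in the list. They lay in introns 5 and 3 of Ikzf3, in intron 1 of Ormdl3 and between genes, at 2.45-fold to 4.93-fold. The peak at 4.26 kb in intron 1 was kept, at 3.93-fold in Veh cells (−log10 p 10.1) and at 5.22-fold in GSK cells (22.6), rank 350 of 40272. The widest H3K4me1 region, at 74.0 kb in intron 7, spanned 2241 bp in GSK and 1804 bp in Veh cells.

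Of the 4 distal GSK LSD1 peaks of Ikzf3, 2 had no Veh peak, against 56.3% of distal GSK LSD1 peaks in the list. The peak at 5.59 kb in intron 1, whose sequence is shown above, was at 5.39-fold with a −log10 p of 10.5 and carried no other mark. The site 22.7 kb upstream held LSD1 (3.28-fold) and H3K4me1 (4.93-fold) in GSK cells only, and reached the start of the predicted gene Gm38981. A Veh-only LSD1 peak stood in intron 7 at 75.8 kb (3.06-fold).

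The busiest distal site of the 5 windows lay 87.7 kb downstream of the Ikzf3 TSS, beyond the 3′ end of the gene. It held peaks in 11 of the 12 lists. LSD1 was at 4.10-fold (−log10 p 9.91) in Veh cells and at 5.80-fold (15.6) in GSK cells. H3K27ac was at 3.55-fold and 3.92-fold, H3K4me3 at 5.50-fold and 5.34-fold, H3K4me2 at 3.53-fold and 4.20-fold, and Pol II at 4.89-fold in Veh cells only. This site covers the start of a predicted transcript of Mien1, so it is distal only with respect to curated transcripts. Next to it, 82.2 kb from the TSS, a site kept LSD1 (2.93-fold in Veh, 4.33-fold in GSK) and H3K4me1 (2.28-fold and 2.61-fold), and had H3K27ac in Veh cells only (3.34-fold). At 52.7 kb, in intron 3, H3K27ac (3.33-fold) and H3K4me2 (−log10 p 7.98) were found in Veh cells only and H3K4me3 in both (3.72-fold and 3.83-fold).

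Ikzf4 encodes Eos and lies on the minus strand at chr10:128630839-128669671 among the genes Rps26, Suox, Rab5b, Pmel and Cdk2. Its curated TSS, shared with Gm26876, carried LSD1 at 3.89-fold (−log10 p 5.92) in Veh cells and 5.11-fold (9.60) in GSK cells. H3K4me3 was at 5.03-fold and 5.02-fold, H3K4me2 at 3.80-fold over 1442 bp and 4.60-fold over 428 bp, and H3K4me1 on the upstream flank at 4.31-fold and 4.18-fold. A further H3K4me1 peak, 0.910 kb downstream, was found in GSK cells only (2.79-fold). Neither H3K27ac nor Pol II was called at this TSS in either treatment.

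LSD1 peaks in the Ikzf4 window numbered 4 in Veh cells and 8 in GSK cells, the largest rise among the 5 genes. Of the 8 GSK peaks 4 had no Veh peak, against 42.2% of the GSK list. The peaks found in GSK cells only stood at the TSSs of Suox (4.88-fold), which encodes sulfite oxidase, and of Cdk2 and Pmel (5.02-fold), where Cdk2 is a cell cycle kinase. The other 2 lay 23.1 kb upstream of the Ikzf4 TSS (5.62-fold) and 30.7 kb downstream (3.36-fold). The site 23.1 kb upstream held H3K4me2 at 5.80-fold in Veh cells, rank 456 of 15219, and at 5.52-fold in GSK cells, rank 939 of 9437. H3K4me3 was at 5.06-fold and 4.85-fold, and predicted Ikzf4 transcripts start there. LSD1 was kept 17.7 kb upstream, the site whose sequence is shown above, at 5.91-fold in Veh and 4.64-fold in GSK cells with H3K4me1 in both.

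In intron 6 of Ikzf4, 8.38 kb downstream, H3K4me1, H3K4me2, H3K4me3 and Pol II were found in both treatments with no LSD1. Pol II was at 4.26-fold in Veh and 3.84-fold in GSK cells. H3K27ac at 4.29-fold was called in Veh cells only. The H3K4me1 region there was 1410 bp in Veh and 2389 bp in GSK cells. It was the widest of Ikzf4 in GSK cells, while in Veh cells the widest was 2291 bp, 18.1 kb upstream. The remaining H3K27ac peaks of the window, at Rps26 (4.36-fold) and at Cdk2 and Pmel (4.74-fold), were Veh-only as well. Pol II and H3K4me3 were strongest in the 5 windows at such neighbours: Rps26, a ribosomal protein gene, held Pol II at 10.4-fold in Veh and 9.09-fold in GSK cells.

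Ikzf2 encodes Helios and lies on the minus strand at chr1:69531207-69687351. It was the barest of the Ikaros genes, with 20 peaks in 236 kb, and had no H3K27ac peak in either list. H3K4me3 covered its promoter as 1 region of 2400 bp at 3.84-fold in Veh cells. In GSK cells the list gave 2 regions, 1425 bp at 3.99-fold (−log10 p 41.3) and 215 bp with a −log10 p of 7.99. LSD1 in Veh cells formed 2 small peaks upstream, 1.26 kb (3.05-fold) and 1.88 kb (3.94-fold, −log10 p 7.60) from the TSS. In GSK cells there was 1 peak of 840 bp at 5.15-fold and 10.7, which overlapped both and is the Ikzf2 sequence shown above. It missed the TSS window and so counted as distal, 0.391 kb from the start of predicted Ikzf2 transcripts. A GSK-only H3K4me1 peak (5.48-fold) lay 2.81 kb upstream. Neither H3K4me2 nor Pol II was called at this promoter.

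Away from the promoter, Ikzf2 had 1 site with several marks, 172 kb from the TSS and beyond the 3′ end. It held H3K4me1 in both treatments (4.77-fold in Veh, 4.61-fold in GSK) over 1168 bp and 1155 bp, and LSD1 at 3.54-fold and 5.49-fold. H3K4me2 was found in Veh cells only (4.70-fold). The intronic Pol II peaks, 1 in Veh and 3 in GSK cells at 3.42-fold to 4.49-fold, matched no other mark and no peak of the other treatment. Of distal GSK Pol II peaks in the whole list 87.1% had no Veh peak either.

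Satb1 lies on the minus strand at chr17:51736187-51833290 and has 5 curated TSSs, which fall into 3 H3K4me3 regions. The region at the first TSSs was 2996 bp wide at 3.65-fold (−log10 p 109) in Veh cells and 2603 bp at 3.14-fold (81.5) in GSK cells. The middle region was 2506 bp in Veh and 2647 bp in GSK cells, at 2.09-fold in both. The last region, 20.5 kb into the gene, was 2158 bp at 4.40-fold (70.6) in Veh and 2259 bp at 3.17-fold (37.1) in GSK cells. In Veh cells the 4 regions of own TSSs that ranked in the widest 5% of the list were the first of Ikzf1, that of Ikzf2 and the first pair of Satb1.

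LSD1 at the Satb1 promoters was kept. At the first TSSs it formed 2 peaks of 3.50-fold and 3.83-fold in Veh cells and 1 of 5.68-fold over 1013 bp in GSK cells (−log10 p 13.3). At the TSS 6.70 kb downstream it was at 4.78-fold and 4.31-fold. A GSK-only peak (3.48-fold) stood 19.7 kb downstream, near the last TSSs. H3K4me1 and H3K4me2 were absent from all TSS windows of Satb1 in both lists. H3K27ac at the first TSSs (3.13-fold) and at the last TSSs (3.13-fold) was called in Veh cells only, and a neighbouring H3K27ac peak 19.5 kb downstream was kept (2.95-fold in Veh, 3.33-fold in GSK). Pol II was Veh-only at the TSS 6.70 kb downstream (3.27-fold), and kept at 19.5 kb (3.03-fold in Veh, 3.09-fold in GSK).

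None of the 3 distal Veh LSD1 peaks of Satb1 overlapped a GSK peak, and in the list only 34.9% of distal Veh peaks did. The strongest, 21.5 kb upstream and shown above, was at 4.50-fold with a −log10 p of 6.69. It lay at the edge of an H3K4me1 region of 1078 bp (3.40-fold) in Veh cells that was 1409 bp (3.82-fold) in GSK cells, the widest of Satb1. A Veh-only H3K4me2 peak (4.71-fold) stood in the same region. The other 2 were weaker, at 3.64-fold and 3.06-fold, and carried no other mark. All 4 distal H3K4me1 peaks of Satb1 were kept, against 87.7% of distal peaks in the list.

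**Figure D4:**
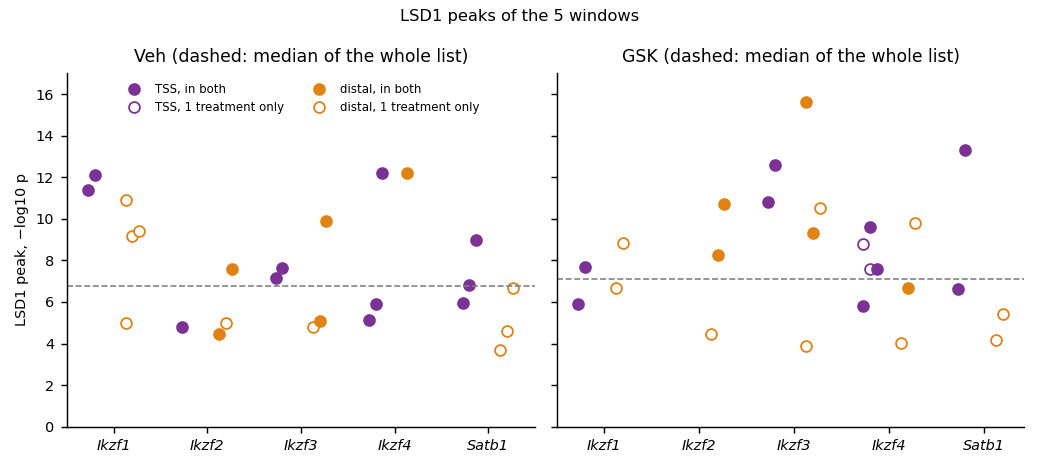
Strength of each LSD1 peak (−log10 p, y axis) by gene in Veh (left) and GSK (right), with TSS peaks in purple and distal peaks in orange. Filled points overlap a peak of the other treatment, open points do not, and dashed lines are the list medians (6.75 and 7.11). No distal peak of Ikzf1 or Satb1 was filled in either treatment. In the whole lists 34.9% of distal Veh peaks overlapped a GSK peak, and 56.3% of distal GSK peaks had no Veh peak.

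LSD1 peaks found in 1 treatment were not all weak. The 9 Veh-only peaks of the 5 windows ran from a −log10 p of 3.71 to 10.9, with a median of 4.99 against 5.21 for Veh-only peaks of the list. The 16 kept Veh peaks had a median of 7.37, against 8.33 in the list. In GSK cells the 11 peaks without a Veh peak had a median of 6.69, against 5.30 in the list. The 3 strongest Veh-only peaks, all in Ikzf1, exceeded the list median of 6.75. Among these 3, the peak of the 55.9 kb site lay beside a GSK LSD1 peak without overlapping it.

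Marks of the same treatment under distal LSD1 peaks were counted next. Of the 5 kept distal Veh peaks 3 overlapped a Veh H3K4me1 peak (64.3% in the list), and 3 of the 9 Veh-only peaks did (39.1%). H3K4me2 lay under 2 of the 5 (35.2%) and 1 of the 9 (10.4%). Of the 9 distal GSK peaks without a Veh peak 4 overlapped H3K4me1 (33.5%), 3 overlapped H3K4me2 (7.27%) and 2 overlapped Pol II (3.34%). With so few peaks these shares are descriptions only.

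The motifs marked in the sequences were also counted in the same window around every distal LSD1 summit. The Ikaros core was found in 4 of 14 Veh windows of the 5 genes and in 16.5% of 12563 windows of the list, and in 1 of 14 GSK windows and 15.7% of 9991. The AP-1 motif was found in 4 of 14 Veh windows (13.0% of the list) and 1 of 14 GSK windows (9.95%). All 4 of those Veh windows belonged to the 9 Veh-only peaks, and 11.9% of Veh-only windows in the list held the motif. RUNX was found in 6 of 14 Veh (32.1%) and 5 of 14 GSK windows (25.7%), ETS in 5 of 14 (17.7%) and 2 of 14 (15.2%), and the E-box in 1 of 14 (11.7%) and 1 of 14 (13.3%).

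H3K4me1, the mark that LSD1 can remove, covered 34.8 kb of the windows in Veh cells and 39.6 kb in GSK cells, a ratio of 1.14 (0.712 to 1.82) where the whole lists gave 1.21. Of the 37 Veh peaks 30 were kept (81.1%, 64.8 to 92.0), against 87.8% of the list, and 12 of 42 GSK peaks had no Veh peak, against 24.8%. By −log10 p the 7 Veh-only peaks lay no higher than the 34.8 percentile of their list. Of the 12 GSK-only peaks 3 exceeded the median of theirs. For this mark the GSK library was the deeper one according to the study. By gene, the covered length was 13.5 kb in Veh and 10.1 kb in GSK cells at Ikzf1, 9.54 kb and 14.6 kb at Ikzf3, and 5.90 kb and 8.58 kb at Ikzf4. It was 1.99 kb and 2.17 kb at Ikzf2 and 3.92 kb and 4.24 kb at Satb1. The GSK value was thus the lower at Ikzf1 and the higher at the other 4 genes. These are lengths of 1 library each, and the differences were not tested.

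H3K4me2, the other substrate, was less covered in GSK cells at all 5 genes. The length was 2.99 kb in Veh and 1.05 kb in GSK cells at Ikzf1, 3.69 kb and 2.80 kb at Ikzf3, 6.79 kb and 3.42 kb at Ikzf4, 0.350 kb and 0 at Ikzf2 and 0.692 kb and 0 at Satb1. Over the 5 windows the ratio was 0.502 (0.285 to 1.30), and over the whole lists it was 0.540. Once both lists were held to the same number of peaks the ratio in the windows was 1.03. That cut removes the difference in list length itself, so this ratio cannot speak to depth. The GSK library was sequenced less deeply for this mark according to the study, and the part of depth was not tested. Of the 21 Veh peaks 12 were kept (57.1%, 34.0 to 78.2), against 55.3% of the list. The single GSK peak without a Veh peak stood at 68.9 kb in intron 6 of Ikzf3 (5.25-fold, −log10 p 10.6), against 10.8% of GSK peaks in the list.

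H3K4me3 was the most alike between treatments, with 29.8 kb covered in Veh and 30.8 kb in GSK cells. All 22 Veh peaks were kept (interval 84.6 to 100), against 97.3% of the list, and 4 of 27 GSK peaks had no Veh peak, against 8.94%. These 4 were distal (22.3% of distal peaks in the list), 189 bp to 771 bp wide in introns of Ikzf1, Ikzf3 and Satb1, and at 2.27-fold to 4.83-fold. They were weak calls, by −log10 p no higher than the 18.4 percentile of the GSK list.

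H3K27ac, a mark of active promoters and enhancers, was found at 14 peaks in Veh and 5 in GSK cells. None of the 5 GSK peaks was without a Veh peak (4.98% in the list), and 5 of 14 Veh peaks were kept (35.7%, 12.8 to 64.9), against 35.2% of the list. The covered ratio was 0.332 (0.101 to 1.05), against 0.284 for the whole lists. It was 0.998 with lists of equal length, a cut that removes the difference in list length itself. The library behind the GSK list was sequenced less deeply than its Veh counterpart according to the study. In each of the 5 kept pairs the GSK peak had the higher fold and the lower −log10 p: at the second Ikzf1 TSS, for example, 2.84-fold and 7.06 in GSK against 2.63-fold and 11.5 in Veh cells. The 9 Veh-only peaks lay between 2.95-fold and 4.74-fold, a range that held 5754 of 7410 Veh peaks and 1098 of 2751 GSK peaks. The part of depth in the H3K27ac difference was not tested.

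Pol II was found at 16 peaks in Veh and 14 in GSK cells, and 10 Veh peaks were kept (62.5%, 35.4 to 84.8), against 39.1% of the list. All 5 Veh peaks at TSSs of neighbours were kept and 1 of 3 at own TSSs, where the list gave 70.6% for TSS peaks. Of the 14 GSK peaks 4 had no Veh peak, against 60.4% of the list.

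**Figure D5:**
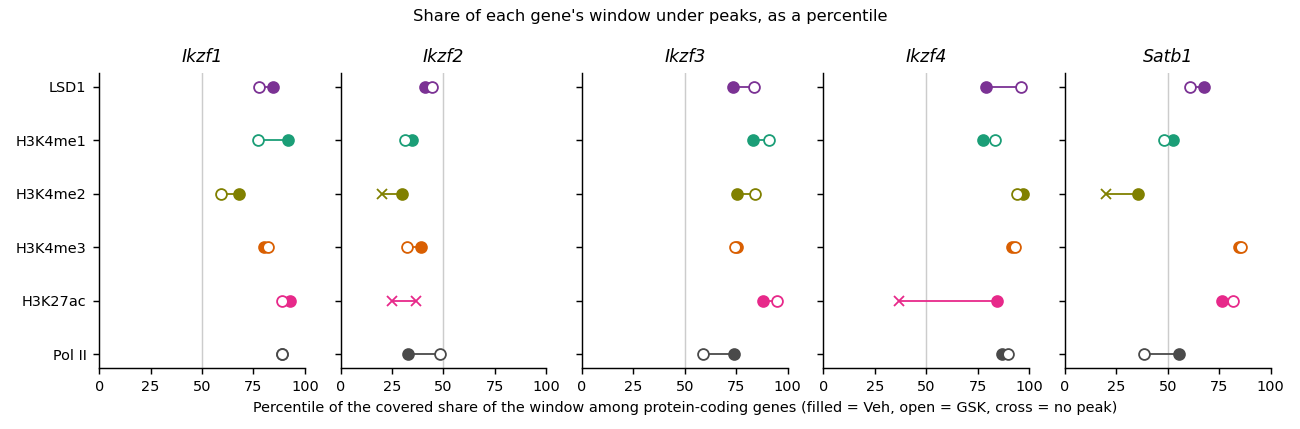
Share of each gene's window under peaks, as a percentile among 20923 protein-coding genes (x axis), by antibody (rows) in Veh (filled) and GSK (open). A cross marks a list with no peak in the window. The H3K27ac point of Ikzf4 moved furthest, from 84.2 to 36.6, where 36.6 is the percentile shared by all genes with no GSK peak.

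Set against all protein-coding genes, the windows of Ikzf1, Ikzf3 and Ikzf4 were rich in peaks and that of Ikzf2 was poor. In Veh cells the covered share for LSD1 ranked Ikzf1 (84.4 percentile) above Ikzf4 (79.0), Ikzf3 (73.6), Satb1 (67.6) and Ikzf2 (40.8). In GSK cells the order was Ikzf4 (95.9), Ikzf3 (83.4), Ikzf1 (77.5), Satb1 (61.0) and Ikzf2 (44.4). H3K4me1 ranked Ikzf1 highest in Veh cells (91.9) and Ikzf3 highest in GSK cells (90.7). For H3K4me3 Ikzf4 led in both (91.7 and 93.3), followed by Satb1 (84.5 and 85.6), Ikzf1 (80.0 and 82.3), Ikzf3 (75.3 and 74.2) and Ikzf2 (39.3 and 32.5). With no replicates, none of these neighbours in rank can be said to differ. The windows of Ikzf1, Ikzf3 and Ikzf4 include promoters of other genes, and 4 of the 8 GSK LSD1 peaks of Ikzf4 stood at such promoters.

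The genes whose windows were most alike in these percentiles over the 12 lists were sought for each member. For Ikzf1 they were 2310022A10Rik, Themis2 and Ptp4a2, with mean differences of 3.68, 4.37 and 5.12 percentile points, against a median of 32.8 over all genes. For Ikzf2 they were Klf8, Phf3 and Ttc21b (3.89 to 4.18), for Ikzf3 Pstpip1, Pfkm and Arhgef17 (4.56 to 5.28) and for Ikzf4 Hgs, Hyou1 and Tcte1 (2.63 to 2.98). For Satb1 they were Zmym3, Ifi213 and Rmnd1 (6.88 to 8.31). Within the 5 genes Ikzf1 and Ikzf3 were most alike, at 11.6 points, and Ikzf2 and Ikzf4 least, at 49.5. The series held fewer inputs than lists, and each list rests on 1 library, so these are descriptions.

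Among relatives and partners, Ikzf5 (Pegasus) kept LSD1 at its promoter, at 5.32-fold in Veh and 5.66-fold in GSK cells, with H3K4me3 and Pol II in both. Of 13 genes for NuRD subunits all 13 had H3K4me3 at a promoter in both treatments (49.2% of promoters). LSD1 was in both at 6 of them, Chd3, Hdac1, Hdac2, Mta2, Rbbp4 and Gatad2a, at 3.09-fold to 7.97-fold in Veh cells (30.8% of promoters). It was found in GSK cells only at Mta3, Mbd2 and Gatad2b (9.95% of promoters) and at no subunit gene in Veh cells only. H3K27ac was kept at 6 subunit genes (8.20% of promoters) and found in Veh cells only at 4 (12.1%).

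The lists carried the marks of the labelled cells. The genes for CD8+ T cell markers were Cd3d, Cd3e, Cd3g, Cd8a, Cd8b1, Lck, Zap70 and Lat. All 8 had H3K4me3 at a promoter in both treatments (49.2% of promoters). Of the 8, 5 had Pol II in Veh and 7 in GSK cells (28.3% and 24.1% of promoters). Cd8a had no Pol II or H3K27ac peak at its promoter in either treatment. None of 5 B cell genes had H3K4me3 or Pol II there, nor did Cd4 or Foxp3. Zbtb7b had H3K4me3 in both without Pol II, and Klrd1, a receptor shared with natural killer cells, had both. The other natural killer cell genes examined, Ncr1 and Klrb1c, had neither. Of 5 myeloid genes Spi1 had H3K4me3, H3K27ac and Pol II and Cd68 had Pol II, in Veh cells only. By −log10 p the Spi1 peaks lay at the 0.225 (H3K4me3), 1.45 (H3K27ac) and 76.3 (Pol II) percentile of their lists. The Cd68 peak lay at the 10.2 percentile. Whether cells of another type contributed to the Veh lists was not tested.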

How the data were processed

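ChIP-seq libraries of Veh- and GSK-treated CD8+ T cells were given as 12 peak lists, and each list came from 1 library. The authors mapped reads to mm10 with Bowtie2, kept unique reads, dropped duplicates (Samtools) and ran MACS2 with input as control. They called narrow peaks for LSD1 and Pol II and broad regions for the histone marks. The authors deposited for each peak a fold enrichment (the ratio of ChIP to local background), a −log10 p and a −log10 q. The deposited score column repeats these values and was not used. The lowest deposited −log10 p was 3.01 for LSD1 and 3.00 for Pol II, while the histone lists began at a −log10 q of 3.01 to 3.03. The study also drew equal numbers of reads at random to compare signals, and whether it did so before calling peaks is not given in the sources used here. The study lists read pairs for every library. By that list the GSK library was the shallower for H3K27ac, H3K4me2 and LSD1 and the deeper for H3K4me1, H3K4me3 and Pol II. The peak lists hold no read totals, so no value was scaled by depth. A deeper library can give more peaks and a higher −log10 p at the same fold. For Pol II the GSK list held 15401 peaks and the Veh list 15638. The part of depth in the list lengths was not tested.

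Gene records and TSSs were those of RefSeq GRCm38.p6, the build of the lists, and every peak lay within its chromosomes. Chromosome Y was left out, and curated transcripts defined TSSs. Positions count from 1. A peak was kept if it overlapped a peak of the other treatment by at least 1 bp. Exact 95% binomial (Clopper-Pearson) intervals cover counting error only. The interval of a ratio of covered lengths came from the numbers of peaks. Percentiles place a peak in its own list. The overlap code was tested on simulated intervals. Analyses used Python with pandas, NumPy, SciPy and pysam.

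Each gene was described in full. Sites were named at own TSSs, at the strongest distal LSD1 peaks, at distal H3K27ac peaks, at distal sites where LSD1 and H3K4me1 or H3K4me2 were each found in 1 treatment only, and at the widest H3K4me1 region. A few others were added once their values were seen. Among them are the Ikzf1 site at 55.9 kb, the GSK-only H3K4me1 peaks of Ikzf3 and neighbouring promoters. Genes, lists and rules were chosen with earlier results of these data known. Alternatives were equal list lengths (the top peaks by −log10 p), a −log10 q of at least 2 (LSD1, Pol II) or 5 (histone marks), 50% overlap, a distance of 500 bp, an extension of 20 kb or none, other TSS definitions and the reverse direction. One gene of the list of relatives is not reported here.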

Additional observations from a re-analysis of the deposited data

How the results depend on the processing

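Of 74 recomputed shares and ratios, 70 stayed within the interval given with the reported value and 4 left it. For ratios that interval came from the numbers of peaks. The intervals were wide, so staying within them is a weak check of stability. A stricter −log10 q raised the share of kept H3K4me1 peaks to 95.5% (21 of 22). Taken from the GSK side, 92.3% of H3K4me2 peaks (12 of 13) and 100% of H3K27ac peaks (5 of 5) overlapped a Veh peak. With lists of equal length the share of kept H3K27ac peaks was 75.0% (3 of 4). The covered ratios of H3K4me2 and H3K27ac, 0.502 and 0.332, became 1.03 and 0.998 with lists of equal length. That setting cuts the Veh list to the length of the GSK list, so these values follow largely from the cut. Both stayed within their wide intervals (0.285 to 1.30 and 0.101 to 1.05). With predicted transcripts counted as TSSs, 3 of 12 distal LSD1 peaks were kept (25.0%), and 13 of 13 at TSSs. No paired analysis was possible because each antibody and treatment had 1 library and no test was run. With 1 library a group, leaving out replicates was not possible either. Numbers of 5 to 42 peaks per list leave every share with a wide interval.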

Other observations

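In the same windows, the genes next to the Ikaros family carried the strongest H3K4me3 and Pol II peaks. Fignl1, which encodes an ATPase and starts 123 kb downstream of the first Ikzf1 TSS, held peaks in 11 of the 12 lists. Its Pol II peak was at 7.44-fold in Veh and 4.19-fold in GSK cells, and its LSD1 peak at 5.48-fold and 4.03-fold. H3K4me2 there (4.05-fold) was called in Veh cells only. Rab5b, which encodes a small GTPase of early endosomes, held the H3K4me3 peak with the highest −log10 p of the 5 windows, at 174 in Veh and 157 in GSK cells. Its LSD1 peak was at 6.37-fold in Veh and 4.71-fold in GSK cells, and H3K4me1 on its flank at 5.30-fold and 6.42-fold. Mien1, 107 kb downstream of the Ikzf3 TSS, kept LSD1 (4.73-fold in Veh, 5.78-fold in GSK) and H3K4me3 (9.51-fold and 9.52-fold), with no H3K27ac or Pol II peak.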
